A study of Mus musculus with 8 samples.

Results

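The cytosolic ribosomal proteins were taken as every gene of the count tables whose name starts with Rpl or Rps and a digit, together with Rplp0, Rplp1, Rplp2 and Rpsa. Names of the Rps6k kinase family and names marked -ps, which are pseudogenes, were dropped. This left 88 of 24421 genes. Of these, 53 belong to the large ribosomal subunit and 34 to the small one, and Rps19bp1 shares the prefix although it encodes a protein that binds Rps19 and is no part of the ribosome. 77 of the 88 were counted as canonical (46 large, 31 small), and the others are paralogs and Rps19bp1. Islet cells of male C57BL/6J mice aged 8 weeks were profiled in droplets in 4 control samples, from mice with no surgery, and in 4 samples collected 2 days after a 50% partial pancreatectomy (PPTx), an operation that induces β-cell replication. Each sample was 1 library made from the islets of 1 to 3 pooled mice. The p-values for PPTx against control measure the spread between these pools. Those with the sample as a block measure how differences within a sample vary between pools. In both, the spread of a gene is estimated partly from the other tested genes. No transgene or deletion was used in either group. Cells were typed by hormone alone. A cell took the name of the hormone with the largest share of its UMIs (unique molecular identifiers, 1 per captured mRNA molecule) if that share was at least 10% and at least 2 times the next, which gave 939 insulin-rich, 127 Ppy-rich, 114 Gcg-rich and 13 Sst-rich cells.

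Each ribosome is assembled from ribosomal RNA and a single copy of most of these proteins, so that their genes are among the most strongly and evenly transcribed in any cell. Many of their mRNAs start with a C followed by a run of pyrimidines, the terminal oligopyrimidine motif, through which mTORC1 signalling adjusts their translation. Islet endocrine cells carry a large translational load because they make and secrete peptide hormones, insulin in β-cells, glucagon (Gcg) in α-cells and pancreatic polypeptide (Ppy) in PP-cells.

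The start sites of several members described below are shown because that motif is the feature these genes are best known to share. The 67 members with an entry in the RefSeq promoter table (GRCm38.p6) were searched on the coding strand for a run of at least 8 bases that are all C or T, in the 30 bases made of 15 before the annotated start and the 15 that begin with it. 27 of the 67 had such a run (40.3%), 25 of the 57 canonical members (43.9%) and 2 of the 10 others. The share among all 27025 genes of the table was 13.9%, and it was 13% among 69 mitochondrial ribosomal proteins, whose ribosomes are separate. In the lines that follow, coding strand, 5′ to 3′, capitals mark the longest run of C and T in each window. A run anywhere in the window was counted, whether or not it met the annotated start, so a run is not by itself the motif. The first sequences, from Rpl13a to Rps24, have a run that meets the length set. The runs of Rplp2 and Rps24 span the annotated start, that of Rpl4 ends before it and that of Rpl13a begins after it. Those of Rpl41, Rplp0 and Rpsa do not meet the length, which says only that these letters are not in this window of the annotated start.
Rpl13a, chr7:45128731-45128760, minus strand: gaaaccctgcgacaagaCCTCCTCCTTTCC
Rplp2, chr7:141447636-141447665, plus strand: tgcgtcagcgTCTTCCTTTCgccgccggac
Rpl4, chr9:64173372-64173401, plus strand: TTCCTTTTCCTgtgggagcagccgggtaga
Rps24, chr14:24490663-24490692, plus strand: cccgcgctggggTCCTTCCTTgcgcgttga
Rpl41, chr10:128549154-128549183, minus strand: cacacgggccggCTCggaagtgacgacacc
Rplp0, chr5:115559452-115559481, plus strand: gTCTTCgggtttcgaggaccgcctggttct
Rpsa, chr9:120127751-120127780, plus strand: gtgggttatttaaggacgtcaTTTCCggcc

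The 8 libraries held 236645 to 1580152 UMIs, with control replicate 1 the shallowest, and 1 cell barcode occurred in more than 1 sample. Insulin mRNA took 42.0% to 54.1% of the UMIs of a library, so 8 hormone genes were left out of every total and all levels below are UMIs per 10000 remaining (hormone-free) UMIs. These are counts of 3′ ends, 1 per molecule, and are not scaled by gene length. A share of UMIs does not give the amount of RNA in a cell. Summed β-cell markers other than insulin were at 92.8 to 137 per 10000 in insulin-rich cells and 1.72 to 21.1 in the other types, α-cell markers other than Gcg at 648 to 902 in Gcg-rich cells and 50.2 to 179 in the others, and PP-cell markers other than Ppy at 21.8 to 29.7 in Ppy-rich cells and 2.14 to 10.04 in the others. Each list was thus highest in the type it marks, although Aqp3 of the PP list had no UMI in any of the 3 types and Mamld1 of the α-cell list had none in Gcg-rich cells.

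Ribosomal proteins gave 176045 UMIs in all kept cells, 125465 of them in insulin-rich cells. In insulin-rich cells Rplp1, an acidic protein of the stalk that recruits translation factors, came first with 4964 UMIs (21.7 per 10000), followed by Rpl41, the shortest ribosomal protein, with 4728, Rps14 with 4232, Rps21 with 4133 and Rpl13a with 3579. These 5 made up 17.2% of the ribosomal protein UMIs, and the median member stood at 5.67 per 10000. Large subunit members summed to 3.0% and small subunit members to 2.47% of hormone-free UMIs. The order of members was similar, though not the same, in the other types. In Ppy-rich cells the leading members were Rps14, Rpl13a, Rplp1, Rps21 and Rps3, and in Gcg-rich cells Rps21, Rps14, Rpl13a, Rplp1 and Rps3. Spearman's rho of the levels over 80 members was 0.960 between insulin-rich and Ppy-rich, 0.947 between insulin-rich and Gcg-rich and 0.965 between Ppy-rich and Gcg-rich cells, a description across genes that share a library and a range of lengths.

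80 of the 88 members had more than 5 UMIs, and all of those had at least 100. The fewest were those of Rps19bp1 (100), of Rpl7l1 (206), a paralog of Rpl7, and of Rpl35 (343). No UMI was counted for 5 members: Rpl26, and the paralogs Rpl10l, Rpl39l, Rpl3l and Rps27rt, of which Rpl10l and Rpl39l are known from testis and Rpl3l from striated muscle. A further 3 canonical members were close to 0, namely Rps27 with 5 UMIs, Rpl30 with 3 and Rpl34 with 1. The proteins of Rpl26, Rpl30, Rpl34 and Rps27 are core parts of the ribosome, and their counts are given here as counted, not as a lack of the transcripts. The end of the transcript of all 4 has exact copies elsewhere in the genome. Of the stretches of 64 bases in the last 400 bases of their transcripts (GENCODE M1 on NCBIM37), 99.7% had another exact copy in the genome for Rps27, 81.0% for Rpl30, 71.2% for Rpl26 and 61.4% for Rpl34. Such copies were not particular to these 4. The median over the 76 counted members that could be matched was 63.0%, with 20 of them above 90% and 16 at none, and Rps12, at 100%, had 4682 UMIs. Whether reads with several matches were discarded for these genes was not tested, and any member's level may carry a part of its copies.

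**Figure D1:**
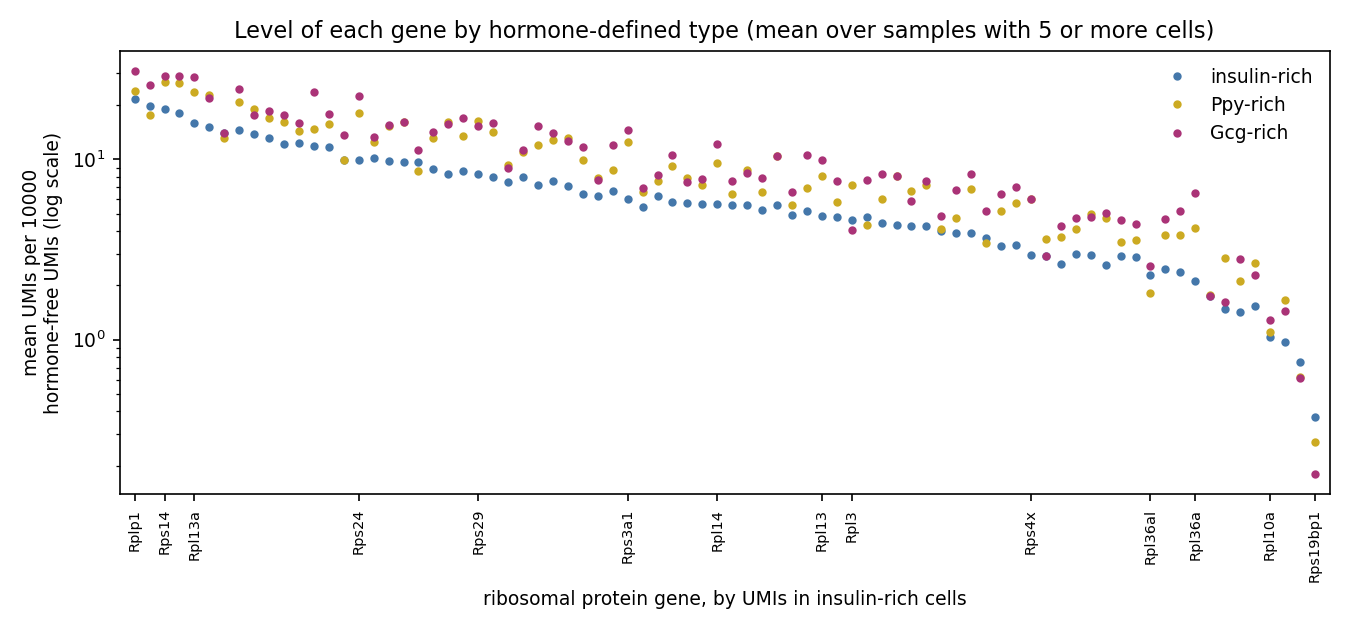
Mean level of each of the 80 members with more than 5 UMIs in the 3 hormone-defined types, over samples with at least 5 cells, in UMIs per 10000 hormone-free UMIs on a log axis, members ordered by UMIs in insulin-rich cells, some of them named on the axis. The Gcg-rich points lie above the insulin-rich points for most members, and the members high in one type are mostly high in the others.

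The first comparison asks whether the ribosomal protein share differs between endocrine types within the same library. It was higher in Gcg-rich and in Ppy-rich than in insulin-rich cells, in every sample with at least 10 cells of both types compared. Only control replicate 4 had at least 10 Gcg-rich and 10 Ppy-rich cells (26 and 12). The share there was 9.63% in Gcg-rich and 8.45% in Ppy-rich cells. Gcg-rich cells of control replicates 2, 3 and 4 gave 8.71%, 8.84% and 9.63%, against 5.17%, 5.27% and 5.17% in insulin-rich cells of the same samples. The difference was 3.858 ± 0.526 percentage points (SD, n = 3), a ratio of 1.74 (1.68 to 1.86). Ppy-rich cells exceeded insulin-rich cells by 2.063 ± 1.140 points (SD, n = 5), a ratio of 1.38 (1.15 to 1.63), in 5 of 5 samples. Across these samples the Ppy-rich difference varied more. With samples of at least 5 cells it varied less, at an SD of 0.945 against 1.095 for Gcg-rich cells. Keeping the hormones in the total lowered all shares, and the ratios were then 1.37 for Ppy-rich (1.17 to 1.65) and 2.73 for Gcg-rich cells (2.61 to 2.91). With samples of at least 5 cells admitted, Gcg-rich cells were higher than insulin-rich in 6 of 6 samples, by 3.221 ± 1.095 points, Ppy-rich in 7 of 7, by 2.159 ± 0.945, and Gcg-rich were higher than Ppy-rich in 5 of 5, by 0.887 ± 0.393. Sums over the members were given no test. The Sst-rich cells, 13 in all, were too few for any sample to enter.

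**Figure D2:**
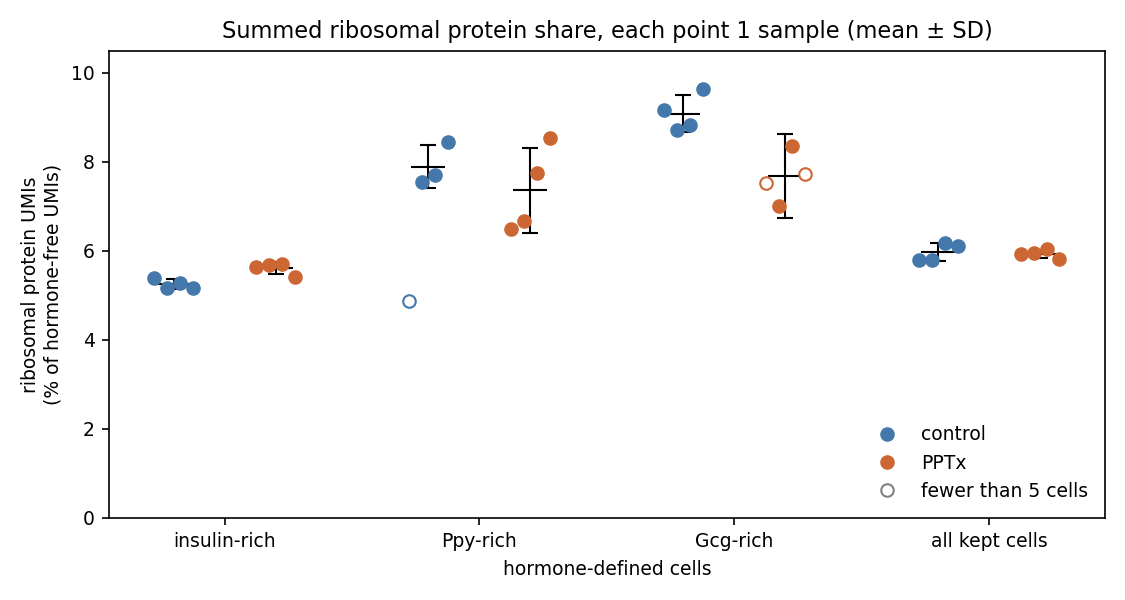
Summed share of ribosomal protein UMIs among hormone-free UMIs (percent) in each sample, by hormone-defined type and operation, each point 1 sample, with mean and SD; open points are samples with fewer than 5 cells, which enter neither. The Gcg-rich points of the controls lie between 8.71% and 9.63% and the insulin-rich points of all samples between 5.17% and 5.70%.

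Singly, 69 of 78 members tested were higher in Gcg-rich than in insulin-rich cells at an adjusted p of 0.05, and none was lower (edgeR, both types of control replicates 2, 3 and 4, sample as a block, Benjamini-Hochberg adjustment over 3333 genes). Among all genes tested 12% were higher and 13.7% lower. The median log2 fold change was 1.0 over the members and -0.02 over all genes. Both subunits took part, with 39 of 46 large and 30 of 32 small subunit members called. DESeq2 called 44 members, all higher, where 157 of 3333 genes were higher and 176 lower. Leaving out a sample gave 49 to 68 members. The 80 members with more than 5 UMIs, tested or not, were higher in all 3 samples in 71 cases and lower in all 3 in 3 cases. With samples of at least 5 cells, 44 of the 80 were higher in all 6 samples and none was lower in all. The same counts over all genes were not made.

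Rps24, a small subunit protein mutated in some patients with Diamond-Blackfan anaemia, had the smallest adjusted p. Its level was 25.4, 22.2 and 23.7 UMIs per 10000 in Gcg-rich cells of control replicates 2, 3 and 4, and 9.01, 9.58 and 8.74 in insulin-rich cells of the same samples. The ranges were far apart, and the log2 fold change was 1.56 (adjusted p = 9.28e-28). Rpl9, a large subunit protein, read 17.1, 17.9 and 22.5 against 7.76, 8.03 and 8.00, a log2 fold change of 1.48 (adjusted p = 2.86e-24). Rpl13 read 9.33, 9.74 and 13.0 against 3.82, 3.11 and 4.30 (1.78, adjusted p = 8.03e-23). All Gcg-rich values of these members lay above all insulin-rich ones. Rps3a1, a small subunit protein near the mRNA exit (1.5, adjusted p = 1.19e-21), and Rpl14 (1.53, adjusted p = 4.75e-21) completed the 5 with the smallest p. Of the stalk, Rplp2 rose by a log2 of 1.03, Rplp1 by 0.75 and Rplp0, which anchors the others, by 0.63, and Rpsa, at the mRNA exit side of the small subunit, rose by 0.93. Rpl5 (1.32) and Rpl11 (0.99), which with 5S RNA form a particle able to bind Mdm2, were also called. The 9 members not called were Rpl15, Rpl24, Rpl29, Rpl3, Rpl35, Rpl36al, Rpl39, Rps27l and Rps4l.

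The largest and the smallest change belonged to a pair of paralogs that encode nearly the same protein. Rpl36a read 9.33, 7.04 and 5.04 per 10000 in Gcg-rich cells of control replicates 2, 3 and 4, and 2.31, 2.56 and 1.73 in insulin-rich cells. It had the highest log2 fold change of all members, 1.80 (adjusted p = 1.29e-14). Rpl36al read 0.519, 2.05 and 0.970 against 1.56, 2.32 and 2.03, a log2 fold change of -0.27 (adjusted p = 0.618). Rpl36al was thus lower in Gcg-rich cells of each of these samples but not beyond its spread, whereas in control replicate 1, with 6 Gcg-rich cells, it read 6.33 against 1.12. With samples of at least 5 cells its log2 fold change was -0.04 (adjusted p = 0.939). The difference between the paralogs' changes was not itself tested. In Ppy-rich against insulin-rich cells the pair again lay apart, Rpl36a at 0.79 (adjusted p = 0.00434) and Rpl36al at -0.42 (adjusted p = 0.231). Of the other paralogs, Rpl37rt was higher in both Gcg-rich (0.95, adjusted p = 0.000688) and Ppy-rich cells (0.64, adjusted p = 0.0236). Rpl22l1, the paralog of Rpl22, was higher in Gcg-rich cells (0.93, adjusted p = 0.00089), with 0.07 in Ppy-rich cells (adjusted p = 0.871). Rps27l, a paralog of Rps27 known as a target of p53, had 0.55 (adjusted p = 0.0546) and -0.33 (adjusted p = 0.278). Rps4l had 0.28 and 0.19, neither called, and Rpl7l1 and Rps19bp1 were too low to be tested in these comparisons. Paralogs share sequence, and how reads were split between them is not given in the sources used here.

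In Ppy-rich against insulin-rich cells, 40 of 78 members were higher and none lower (3219 genes tested, of which 12% were higher and 13.9% lower; control replicate 4 and the 4 PPTx samples). The median log2 fold change was 0.46 over the members and -0.04 over all genes, and 20 of 46 large and 20 of 32 small subunit members were called. Rps3a1 led, with 15.1 UMIs per 10000 in Ppy-rich cells of control replicate 4 and 15.1, 15.4, 11.0 and 9.74 in PPTx replicates 1 to 4. The insulin-rich cells of the same samples gave 7.20, 5.18, 7.13, 5.44 and 6.73. No insulin-rich value reached the lowest Ppy-rich one, and the log2 fold change was 1.12 (adjusted p = 1.78e-12). The next members were Rps24 (0.88, adjusted p = 6.49e-09), Rps29 (0.89, adjusted p = 2.51e-08), Rpl7 (0.99, adjusted p = 4.04e-08) and Rps4x, the X-linked S4 gene (1.05, adjusted p = 1.21e-07). The stalk proteins were not called here, with log2 fold changes of 0.22 for Rplp2, 0.05 for Rplp1 and -0.14 for Rplp0, nor was Rpsa at -0.09. DESeq2 called 25, all higher, where 244 of 3219 genes were higher and 279 lower. Omitting the filter on low counts left 9 members higher and 3 lower, where 296 of 13524 genes were higher and 870 lower. This comparison and that of Gcg-rich cells share the insulin-rich cells of control replicate 4. The 80 members were higher in all 5 samples in 31 cases and lower in all 5 in none. With samples of at least 5 cells, 30 were higher in all 7 samples. These counts were not made over all genes either.

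**Figure D3:**
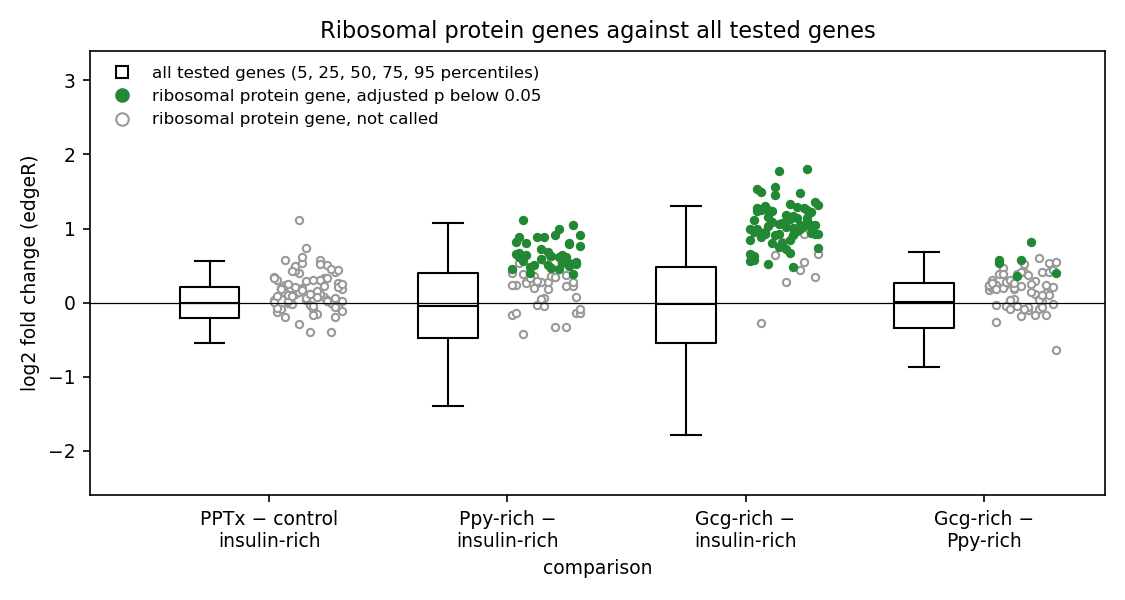
Log2 fold changes of the tested members, each point 1 member, filled where called, in the comparisons between types and between PPTx and control, beside a box with whiskers for the 5, 25, 50, 75 and 95 percentiles of all tested genes. Members sit well above 0 in Gcg-rich against insulin-rich cells (median 1.0), less so in Ppy-rich against insulin-rich cells (0.46) and close to 0 between PPTx and control insulin-rich cells (0.12). The first median comes from 3 control samples and the second from 1 control and 4 PPTx samples, so type and operation differ together between them.

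Gcg-rich cells were compared with Ppy-rich cells directly in the 5 samples with at least 5 cells of each. 6 of 68 members were higher in Gcg-rich cells and none was lower (360 genes tested, 9.17% higher and 10% lower). The share of members called higher was close to that of all genes, so these calls do not set the members apart. The 6 were Rpl41 (0.53, adjusted p = 0.0082), Rpl28 (0.82, adjusted p = 0.0159), Rpsa (0.58), Rps2 (0.57), Rplp1 (0.40) and Rpl13a (0.36). Rpl28 read 8.82, 6.55, 7.37, 8.98 and 5.74 per 10000 in Gcg-rich cells of control replicates 2, 3 and 4 and PPTx replicates 2 and 3. It read 4.31, 4.74, 5.50, 4.08 and 3.02 in Ppy-rich cells of these samples, and the ranges did not overlap. Rpl3, which lines the peptidyl transferase centre, was the lowest at -0.64 (adjusted p = 0.085). The median of the members was 0.23 against 0.01 over all genes. DESeq2 called 1 member higher, with 20 of 360 genes higher and 13 lower. Without control replicate 4, 2 members were higher and 1 lower.

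Several ribosomal proteins have names outside the rule. Fau, whose product is cleaved into a ubiquitin-like protein and a small subunit protein, and Gnb2l1 (Rack1), a scaffold on the small subunit, were both higher in Gcg-rich than in insulin-rich cells (1.07 and 0.80, adjusted p = 7.87e-10 and 2.18e-06). In Ppy-rich cells their log2 fold changes were -0.04 and 0.29, neither called. Among the translation factors, of which 4 of 13 with an entry had the run of C and T searched above (30.8%), 7 of 16 tested were higher in Gcg-rich cells, led by Eef1b2 (1.25), and 5 of 16 in Ppy-rich cells, again led by Eef1b2 (0.90). The medians of the translation factors were 0.42 and 0.37. Among genes of ribosome assembly, 1 of 10 was higher in Gcg-rich cells, the nucleolar chaperone Npm1 (0.94), and 1 was lower, Nop10 (-1.09), with a median of 0.37. In Ppy-rich cells 1 of 9 was higher, again Npm1 (1.29), with a median of -0.14. Of the mitochondrial ribosomal proteins, 1 of 31 was higher and 1 lower in Gcg-rich cells, and 5 of 37 were lower and none higher in Ppy-rich cells. The shares of all genes called, 12% higher in each comparison and 13.7% and 13.9% lower, apply to these lists too. Immediate early genes, which respond to cell dissociation among other stimuli, moved with the same types. The summed level of the 12 genes of that list was 5.39 to 18.1 per 10000 in insulin-rich, 20.1 to 94.4 in Ppy-rich and 16.5 to 56.9 in Gcg-rich cells, with 6 of 6 and 4 of 6 tested genes higher. Its part in the ribosomal protein differences was not tested.

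The second comparison asks whether the ribosomal protein genes differ 2 days after PPTx. In insulin-rich cells the summed share was 5.40%, 5.17%, 5.27% and 5.17% in control replicates 1 to 4 and 5.64%, 5.68%, 5.70% and 5.41% in PPTx replicates 1 to 4. All PPTx values lay above all control values, by 0.0099 points at the nearest. The means were 5.25% ± 0.11 and 5.61% ± 0.135 (SD, n = 4 each), a difference of 0.355 points or a ratio of 1.07. The groups overlapped once the hormones were kept in the total, once cells were thinned to 1000 hormone-free UMIs, once a hormone share of 5 times the next was required, and once the sum was limited to canonical members, though the difference stayed positive in each. Over all kept cells the shares were 5.97% ± 0.205 and 5.93% ± 0.0906, a difference of -0.042 points within the spread of the samples. The control samples held 95 of the 114 Gcg-rich and 31 of the 127 Ppy-rich cells. Depth also went with the share inside samples. Insulin-rich cells of a sample at or above its median depth, less those below it, gave -0.690 points (PPTx replicate 2) to 0.153 (PPTx replicate 1).

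No single member was called between PPTx and control insulin-rich cells (edgeR, 80 members among 5749 genes, of which 0.174% were higher and 0.122% lower), and DESeq2 called none. 10 of the 80 had an unadjusted p below 0.05 (9 higher, 1 lower), against 9.6% of all genes, and leaving out a sample gave 5 (without PPTx replicate 2) to 18 (without PPTx replicate 4). 61 of the 80 had a log2 fold change above 0 (48.9% of all genes), and the median was 0.12 over the members and -0.01 over all genes. The groups were fully apart for Rpl10a, Rpl36al and Rpl7a, 3 of 80 and all higher in PPTx, where 3.13% of all genes were apart in this direction and 2.61% in the other.

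Rpl10a, of the large subunit's L1 stalk at the tRNA exit, had the smallest p. Its level was 0.699, 0.500, 0.555 and 0.934 UMIs per 10000 in control replicates 1 to 4 and 1.38, 2.01, 0.943 and 1.33 in PPTx replicates 1 to 4. PPTx replicate 3 lay only just above control replicate 4, and the log2 fold change was 1.11 ± 0.27 (SE, adjusted p = 0.0793). It passed the threshold without control replicate 4 (adjusted p = 0.0473), without PPTx replicate 3 (0.0306) and without the filter on low counts (0.0055), and its adjusted p reached 0.741 in other settings. Rplp0 read 13.8, 9.01, 10.3 and 11.6 in controls and 20.4, 18.6, 12.3 and 15.2 after PPTx (0.61 ± 0.17, adjusted p = 0.141). PPTx replicate 3 lay within the control range. Rplp0 passed the threshold without the filter on low counts (0.65, adjusted p = 0.0244) and with the replicate number as a block (0.58, adjusted p = 0.0392), and its adjusted p reached 0.769 in other settings.

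Rpsa read 9.79, 7.07, 7 and 9.11 in controls and 14.0, 14.0, 8.68 and 9.07 after PPTx (0.52, adjusted p = 0.255), with PPTx replicates 3 and 4 inside the control range. Rpl36al read 1.12, 1.56, 2.32 and 2.03 against 2.46, 3.5, 2.41 and 2.72 (0.58, adjusted p = 0.287), while its near-identical partner Rpl36a had -0.01. Rpl13 read 5.31, 3.82, 3.11 and 4.30 against 6.99, 7.25, 4.33 and 3.90 (0.53, adjusted p = 0.378), and the groups overlapped. At the other end, Rps28 read 2.1, 4.38, 3.81 and 3.07 against 2.1, 1.99, 3.55 and 2.72 (-0.40, adjusted p = 0.56). No gene among 18 translation factors, 17 of ribosome assembly, 59 mitochondrial ribosomal proteins and 6 immediate early genes tested was called in this comparison. Their median log2 fold changes were 0.07, 0.08, 0.25 and 0.24 in that order. The 3 ribosomal proteins tested outside the name rule had a median of 0.24, and none was called. An upward median was thus not particular to the members.

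**Figure D4:**
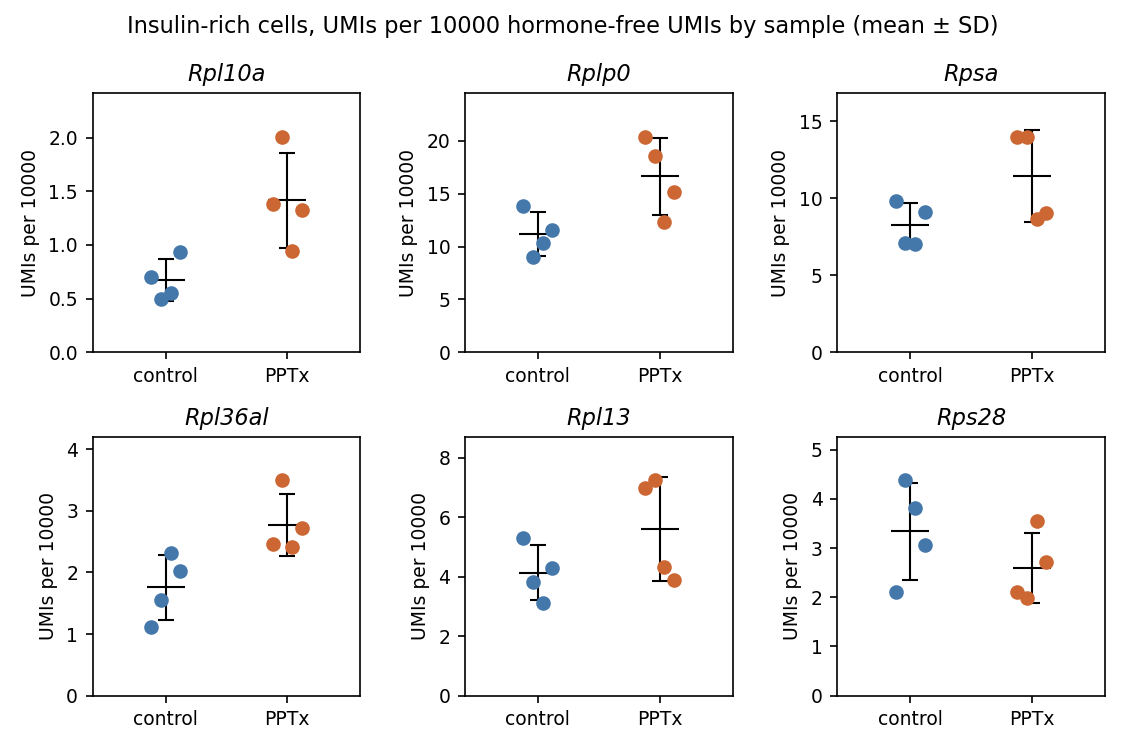
Level of 6 members in insulin-rich cells of each sample, in UMIs per 10000 hormone-free UMIs, control and PPTx, with the group mean and SD. Rpl10a and Rpl36al do not overlap between groups, and Rplp0, Rpsa, Rpl13 and Rps28 do.

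The size of the difference between PPTx and control varied with the length of the coding sequence. Over 76 members in insulin-rich cells Spearman's rho between coding length and log2 fold change was 0.49, across genes of the same 8 libraries. Split by length, the median log2 fold change was 0.01 for the 25 shortest (156 to 408 bases), 0.12 for the middle 25 and 0.30 for the 26 longest (579 to 1260 bases), of which 25 lay above 0. Among 5250 other genes rho was -0.15. In Ppy-rich cells rho was 0.58 over 67 members, with medians of -0.22, -0.12 and 0.18, and in Gcg-rich cells it was 0.17. The libraries themselves differed in this way within a group. The level of a member relative to its mean over libraries rose or fell with coding length at rho of 0.22, -0.72, -0.45 and 0.38 in control replicates 1 to 4 and 0.34, 0.37, -0.48 and 0.22 in PPTx replicates 1 to 4. Control replicates 2 and 3 and PPTx replicate 3 thus had relatively more UMIs of short members and the other 5 libraries relatively more of long ones. The part of the library pattern in insulin-rich cells, 2 controls against 1 PPTx sample, in the length relation was not tested. A fit added after seeing the data used the other 5 libraries, 2 controls and 3 PPTx samples. These libraries were chosen by the levels of the members themselves, so the values that follow are a description and no test of the library pattern. The fit called no member in insulin-rich cells (6225 genes tested, 2 higher and 3 lower). Of 80 members, 55 lay above 0 (50.7% of all genes), with medians of 0.10 over the members and 0.01 over all genes. The summed share was higher after PPTx by 0.293 points in these libraries.

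**Figure D5:**
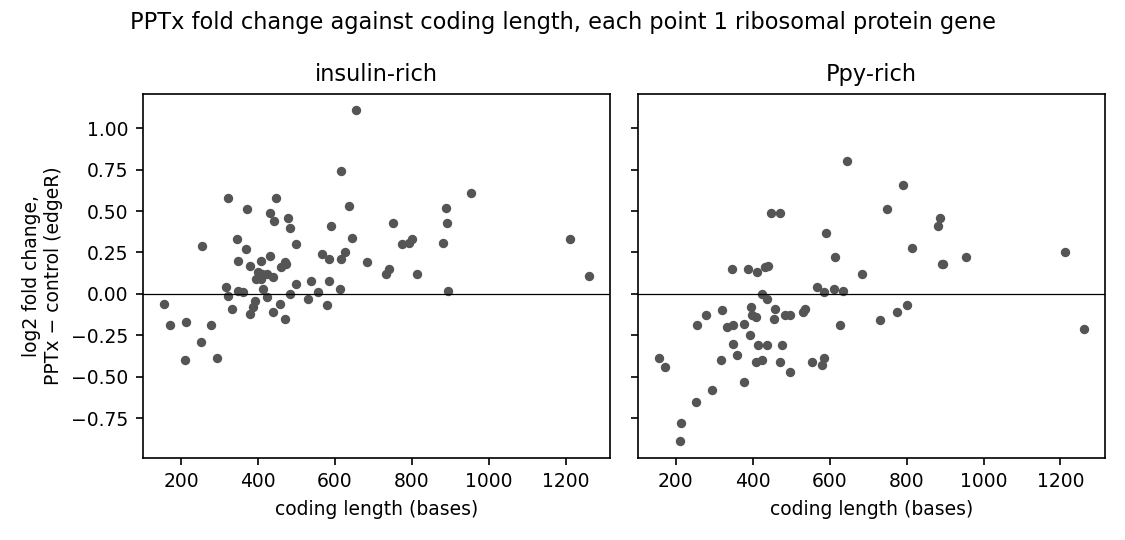
Log2 fold change of PPTx against control (vertical axis) by coding length in bases (horizontal axis), each point 1 member, for the 76 members in insulin-rich cells on the left and the 67 in Ppy-rich cells on the right. In both panels the short members lie lower than the long ones, around Spearman's rho of 0.49 and 0.58.

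PPTx could be compared in the other types only with samples of at least 5 cells. In Ppy-rich cells the summed share was 7.54%, 7.70% and 8.45% in control replicates 2 to 4 and 6.50%, 6.67%, 7.76% and 8.53% in PPTx replicates 1 to 4. The groups overlapped (7.90% ± 0.484 and 7.37% ± 0.958, SD, n = 3 and 4). No member was called among 70 (555 genes tested, 0% higher and 0% lower), and 6 had an unadjusted p below 0.05, 4 of them lower, against 7.39% of all genes. That number was 0 without PPTx replicate 1 or PPTx replicate 2, 10 without PPTx replicate 3 and 1 by DESeq2. The 6 included Rps28 (-0.89), Rpl38 (-0.78), known for its part in translation of Hox mRNAs, Rps21 (-0.65), Rps4x (0.66) and Rpl10 (0.80). Rps21 shows how single libraries enter: it read 37.0, 33.7 and 28.2 per 10000 in control replicates 2, 3 and 4, and 14.3, 15.5, 28.6 and 28.1 in PPTx replicates 1 to 4. PPTx replicates 1 and 2 were far below the controls, and PPTx replicates 3 and 4 were close to control replicate 4. In insulin-rich cells of the same PPTx samples Rps21 read 12.5, 13.4, 22.1 and 16.8, so replicates 1 and 2 were the lowest there as well.

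In Gcg-rich cells the summed share was 9.17%, 8.71%, 8.84% and 9.63% in control replicates 1 to 4 and 7.01% and 8.36% in PPTx replicates 2 and 3, which held 7 cells each. The groups did not overlap, and the difference was -1.406 points, the opposite direction to that in insulin-rich cells. Its size depended on the library, since PPTx replicate 3 lay closer to the control mean of 9.09% than PPTx replicate 2. No member was called among 70 (312 genes tested, 0% higher and 0.321% lower). 6 members, all lower, had an unadjusted p below 0.05, against 8.01% of all genes, and the median log2 fold change was -0.21 over the members and 0.02 over all genes. The number was 3 without PPTx replicate 2 or control replicate 3, 12 (11 lower) without PPTx replicate 3 and 2 by DESeq2. Rpl18 was the lowest at -1.26, with 12.7, 7.26, 6.71 and 11.1 per 10000 in controls and 2.64 and 4.31 in the PPTx samples. Rps14 (-0.81), Rps28 and Rps21 were also among the 6, and Rps27l was the highest at 0.70. The difference between the effects of PPTx in Gcg-rich and insulin-rich cells was tested gene by gene. No member was called among 79 (4118 genes tested, 0% in either direction), and 6 had an unadjusted p below 0.05, all with the lower effect in Gcg-rich cells (3.89% of all genes). This number ranged from 2 without PPTx replicate 2 to 17 without control replicate 2 and 32 without control replicate 1, all in the same direction. 4 of 79 estimates were above 0 (43.7% of all genes), and the median was -0.49 over the members and -0.14 over all genes. Without PPTx replicate 2, 17 of 79 were above 0, and the medians were -0.31 and -0.34. Rpl18 had the smallest p, at -1.57 (adjusted p = 0.999). For Ppy-rich against insulin-rich cells none of 79 was called either (4333 genes tested, 0% in either direction), with 3 at an unadjusted p below 0.05 (5.31% of all genes; 0 without control replicate 3 and 6 without PPTx replicate 4). The medians were -0.21 over the members and 0.11 over all genes, and -0.05 and 0.22 without control replicate 4.

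The last comparison asks whether insulin-rich cells with transcripts of DNA replication and mitosis differ in ribosomal proteins. With cells marked by at least 2 UMIs over 20 such genes, 406 of 939 insulin-rich cells were counted as cycling, but 1733 of the 2325 UMIs of the list came from Spc25, so the comparison was repeated without that gene, which left 44 cells. The marking with Spc25 also followed depth, since the marked cells held more hormone-free UMIs per cell in every sample. In PPTx replicate 1, 56 marked cells held 181195 and the 42 others 95073. The part of depth in the differences was not tested. The summed share of the cycling cells was higher by 0.122 ± 0.322 points (SD, n = 8; 5 of 8 samples) with Spc25 and by 0.515 ± 0.724 points (6 of 8 samples) without it. Neither difference exceeded its spread. With at least 3 UMIs required, the difference was 0.025 ± 0.42 points (3 of 8 samples) with Spc25 and 0.478 ± 0.750 (5 of 8) without it. Without Spc25 the samples held 1 to 14 cycling cells, and control replicates 1 and 2, at 1.63 and -0.37 points, held 1 cell each. With Spc25, no member was called among 79 (3290 genes, 0.395% higher and 0.304% lower) and 3 had an unadjusted p below 0.05 (7.54% of all genes), with Rpl4, an inner protein of the exit tunnel, first at 0.24 (adjusted p = 0.0849). Leaving out a sample gave 2 (without control replicate 3 or PPTx replicate 1) to 8 (without PPTx replicate 2) in place of these 3. Without Spc25, none of 72 was called (1059 genes, 4.06% higher and 1.98% lower) and 6 had an unadjusted p below 0.05, all higher (17.7% of all genes). This direction depended on the setting, since DESeq2 gave 1 higher and 2 lower, and omitting the filter on low counts gave 34, all lower. Leaving out a sample gave 1 (without PPTx replicate 1) to 9 (without control replicate 2). Of these, 2 were lower without control replicate 1 and 2 without PPTx replicate 3. The 6 included Rps7 (0.61, adjusted p = 0.0989), Rps15, Rps3, Rpl36a and Rpl22l1. The assembly genes Npm1 (0.99, adjusted p = 0.00802) and Ncl (0.96, adjusted p = 0.0127), both nucleolar proteins, were higher in the same cells, 2 of 3 such genes tested, while with Spc25 none of 9 was called.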

How the data were processed

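Islet cells were captured in droplets with a 3′ kit (the paper's methods name ddSEQ and SureCell, the sample labels a Chromium kit) and sequenced on HiSeq2500. The authors aligned reads to mm10 and deposited raw UMI counts per gene and cell from Cell Ranger 2.1.0, without normalization, as 1 table per sample. How reads with several matches were treated is not given in the sources used here. The paper's limits on genes (100 to 3000) and UMIs (100 to 20000) per cell left 1232 of 1240 cells. Cells without a dominant hormone (38) entered no type, and no doublet caller was run.

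Counts were summed per sample and type (at least 10 cells), hormones left out, and tested in R 4.3.3 with the quasi-likelihood test of edgeR 4.0.16, after filterByExpr and TMM scaling, two-sided, at an adjusted p of 0.05 over all tested genes. Types were compared with the sample as a block, and so were cycling with other insulin-rich cells, with no minimum of cells. Comparisons of PPTx in Ppy-rich and Gcg-rich cells, of Gcg-rich with Ppy-rich cells, and the removal of Spc25, used settings chosen after seeing the data. Alternatives were DESeq2 1.42.0, other size factors, no filter, hormones kept, the largest hormone deciding the type, cells thinned to 1000 UMIs, a replicate block, and leaving out each sample. Scripts were tested on simulated data. Shares and exact copies were computed in Python 3.11.15 with numpy 2.4.6, pandas 2.3.3 and scipy 1.17.1. Depth was 236645 to 1580152 UMIs per sample, and shares carry counting error besides the spread given.

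The members, gene lists and tests were chosen with earlier results of these data known. Named were, per comparison, up to 5 called members each way with the smallest adjusted p (otherwise the 5 with the smallest p), the members farthest from the median, the 5 with the most and the fewest UMIs, paralogs, and ribosomal proteins outside the rule. Rpl7a, Rpl5, Rpl11, the stalk proteins, Rps12 and the uncalled members were named after their values were seen. Some genes that this rule names are not reported here.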

Additional observations from a re-analysis of the deposited data

Results flagged for a closer look

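The difference between PPTx and control in the summed ribosomal protein share had opposite directions in Gcg-rich and insulin-rich cells. It was -1.406 points in Gcg-rich cells, where both PPTx samples with at least 5 cells lay below all 4 controls, and 0.355 points in insulin-rich cells, where all 4 PPTx samples lay above all 4 controls. The effect in Gcg-rich cells less that in insulin-rich cells was -1.76 points. This difference of sums was not tested, and these PPTx samples, replicates 2 and 3, held 7 Gcg-rich cells each. They stood at 7.01% and 8.36% against a control mean of 9.09%, so its size depended on the library. Requiring 5 times the next hormone left 2, 4, 5 and 1 Gcg-rich cells in PPTx replicates 1 to 4, from 4, 7, 7 and 1. Controls kept 6, 11, 51 and 26, from 6, 11, 52 and 26. PPTx replicate 2 then fell below 5 cells, and the comparison was not made in that setting.

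A signal also appeared among the pseudogene names that the choice of members dropped. Rpl14-ps1 had 792 UMIs in all kept cells, of 961 UMIs over 6 such names, more than Rpl35 or Rpl7l1 among the members. Its relation to reads of Rpl14 was not tested.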

How the results depend on the processing

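Of 183 alternative values for the main results 159 moved by less than the spread between samples (counts by at most 1.5 times), and of 753 for 61 values of named genes 716 kept direction and side of the threshold, with 24 losing and 8 gaining a call. The difference over all kept cells turned positive with hormones kept (0.070) and ranged from -0.102 to 0.026 when a sample was left out (0.026 without control replicate 3, 0.009 without control replicate 4). With hormones kept, Ppy-rich exceeded insulin-rich cells by 0.723 points and Gcg-rich by 3.041 points, on a scale where all shares are lower (ratios of 1.37 and 2.73), and at 5 cells Gcg-rich did so by 3.221. Members called in insulin-rich cells after PPTx numbered 2 without a filter (Rpl10a and Rplp0) and 0 to 1 when a sample was left out (1 without control replicate 4 or PPTx replicate 3), and 0 to 1 in Gcg-rich cells (1 lower, without PPTx replicate 3, which leaves 1 PPTx sample, assumed to vary like the controls). For Ppy-rich against insulin-rich cells they numbered 25 by DESeq2, 12 without a filter and 26 with thinned cells, and for Gcg-rich against insulin-rich 44 and 43. For Gcg-rich against Ppy-rich cells they numbered 1 by DESeq2, 0 without a filter, 0 with thinned cells and 2 to 4 when a sample was left out. In cycling cells 0 to 1 was called when a sample was left out (1 without control replicate 1) and, without Spc25 and without a filter, 3, all lower. The latter setting reversed Rps7 (-0.09), Rps15 (-0.34), Rps3 (-0.37), Rpl36a (-0.03) and Rpl22l1 (-0.14). The filter changes how many genes are tested, and otherwise the cause was not tested.

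DESeq2, which changes the model as well as the size factors, moved the median of all genes from -0.02 to -0.12 in Gcg-rich against insulin-rich cells. The members were then at 0.93 in place of 1.0. In the difference of PPTx effects between these types it moved that median from -0.14 to 0.03, with the members at -0.36 in place of -0.49. In cycling cells without Spc25 it moved the median from -0.06 to -0.20, with the members at 0.02 in place of 0.14. With edgeR kept and only the size factors changed, the medians of all genes were -0.08, 0.01 and -0.17 in the same order. Those of the members were 0.94, -0.37 and 0.03. Same-numbered samples were not paired by the labels, and their deviations correlated at 0.061, 0.032, 0.096 and 0.152. With a replicate block the share difference was 0.355, and 1 member was called in insulin-rich cells, Rplp0 (0.58, adjusted p = 0.0392). At 10 cells, PPTx could not be compared in Ppy-rich, Gcg-rich or Sst-rich cells.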
